A study of Caenorhabditis elegans with 2 samples.

Results

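The regions described here are the binding peaks of the tagged homeodomain protein IRX-1 that lie on the X chromosome of Caenorhabditis elegans and away from promoters. They are the 209 peaks among 2445 in the deposited optimal list (ce11) whose summit is on X, outside every window from 1000 bp upstream to 200 bp downstream of a protein-coding gene start, and more than 200 bp from a tRNA, snoRNA or snRNA gene. Of 461 X peaks, 197 fell in a promoter window and 55 more were dropped beside a small RNA gene, 54 of them tRNA genes. The same rule kept 662 peaks on the autosomes. A further 3769 X regions from the permissive list of both replicates together, none of them touching an optimal peak, passed the rule too and served as background regions.

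The data come from chromatin immunoprecipitation with sequencing, with 1 group of 2 biological replicates and no second condition. Both replicates were whole hermaphrodite L1 larvae of strain OP536, with the unc-119(tm4063) III allele and the wgIs536 insertion, which supplies IRX-1 with a GFP-FLAG tag at its C-terminus. The larvae were synchronized by starvation after bleaching and collected 6 hours later, and an anti-GFP antibody pulled down the tagged protein. Whole animals were used, so cell types cannot be told apart, and peaks of the tagged transgene product need not equal those of the untagged protein. Only peak lists were analysed, so sequencing depth is unknown, and each peak carries a score from the authors' caller whose formula is not stated.

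IRX-1 belongs to the Iroquois family of homeodomain transcription factors, which regulate patterning in many animals. In the worm it is known for its part in the synaptic remodelling of DD GABAergic motor neurons, which takes place as L1 larvae develop. The X chromosome of C. elegans hermaphrodites is bound by the dosage compensation complex, a condensin-containing complex that lowers expression from both X chromosomes. The complex is first loaded at recruitment elements on X, known as rex sites, and spreads from them. The motif known from rex sites holds the letters GCGCAGGG.

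GCGCAGGG lay within 50 bp of the summit of 11 of the 209 members, 8 of which are among the 20 with the highest scores. Those 8 are shown because they include the highest-scoring peak of the whole list. Each sequence is from the RefSeq WBcel235 assembly and runs 5′ to 3′ on the strand that reads GCGCAGGG, with 25 bases on either side and the motif in capitals.
Between W04G3.11 and W02H3.3, chrX:11094201-11094258, minus strand: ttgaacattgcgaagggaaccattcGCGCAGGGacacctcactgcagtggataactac
Between F20B6.9 and hpk-1, chrX:4209241-4209298, minus strand: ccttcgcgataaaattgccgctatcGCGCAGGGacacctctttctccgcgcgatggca
Intron of mom-1, chrX:6296523-6296580, plus strand: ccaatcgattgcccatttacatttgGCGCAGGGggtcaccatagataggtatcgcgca
Upstream of xol-1, chrX:8036410-8036467, plus strand: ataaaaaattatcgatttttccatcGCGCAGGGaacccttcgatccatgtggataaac
Intron of Y41G9A.17, chrX:2997098-2997155, minus strand: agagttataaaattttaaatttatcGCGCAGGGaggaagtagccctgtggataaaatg
Between gtr-1 and F25E2.2, chrX:806649-806706, plus strand: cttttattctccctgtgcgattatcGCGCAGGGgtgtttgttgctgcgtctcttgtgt
Coding exon of pks-1, chrX:5429565-5429622, plus strand: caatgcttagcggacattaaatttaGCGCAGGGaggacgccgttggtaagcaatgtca
Between col-185 and cdk-4, chrX:13514533-13514590, plus strand: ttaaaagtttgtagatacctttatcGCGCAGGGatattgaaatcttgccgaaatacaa
The copies in 6 of these 8 sequences follow the letters TC, and the letter after the motif is A in 6 of 8. Across all 13 copies at member summits, TC came before the motif in 9 and A after it in 11.

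The members ranked 2 and 3 by score hold no exact copy. Both hold GCGAAGGG, which differs by the change C4A, with positions counted from 1 at the 5′ end of GCGCAGGG. They are shown over the 101 bases around the summit with that closest match in capitals. Beside them is the highest-scoring member with neither form within 50 bp of its summit, where the closest match has 3 mismatches. The whole peak of that member does hold 1 exact copy farther out, at chrX:12363039-12363046.
Between adm-2 and K02D3.1, chrX:13700827-13700927, minus strand: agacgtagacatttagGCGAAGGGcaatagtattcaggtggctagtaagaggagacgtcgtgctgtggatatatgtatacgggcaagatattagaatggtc
Between ZK899.6 and gap-2, chrX:9465818-9465918, plus strand: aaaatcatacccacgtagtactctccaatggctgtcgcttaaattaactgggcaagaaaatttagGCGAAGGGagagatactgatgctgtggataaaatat
Between F19H6.6 and F19H6.5, chrX:12363114-12363214, plus strand: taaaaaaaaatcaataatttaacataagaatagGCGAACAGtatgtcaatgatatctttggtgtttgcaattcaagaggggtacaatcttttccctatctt

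The share of peaks away from promoters was higher on X than on the autosomes. It was 45.3% of 461 X peaks (95% Wilson interval 40.8 to 49.9) and 33.4% of 1984 autosomal peaks (31.3 to 35.5), an odds ratio of 1.66 (two-sided Fisher's exact test, p = 1.91e-06). The single autosomes lay between 31.2% on V and 37.5% on IV, so X stood above each of them. The bases that the rule leaves make up 81.7% of X and 77.4% of the autosomes. Per megabase of such bases there were 14.4 peaks on X and 10.4 on the autosomes. Intervals here cover counting error only, and peaks are not independent replicates, so these p-values describe the pooled list.

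The members' scores had a median of 119.1, with quartiles of 92.6 and 185.6 and a range of 81.7 to 1184.9. The median was close to 116.0 for autosomal peaks away from promoters and to 124.6 for X promoter peaks. The sets parted at the top of the list. Of the 10 highest-scoring peaks away from promoters in the genome, 7 were on X, as were 11 of the top 20 and 32 of the top 100, against 209 of all 871 (24.0%). In the replicate lists X held 11 of the top 20 such regions in replicate 1 and 12 of 20 in replicate 2. Among all 2445 optimal peaks the top 20 held 6 members and 1 X promoter peak.

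**Figure D1:**
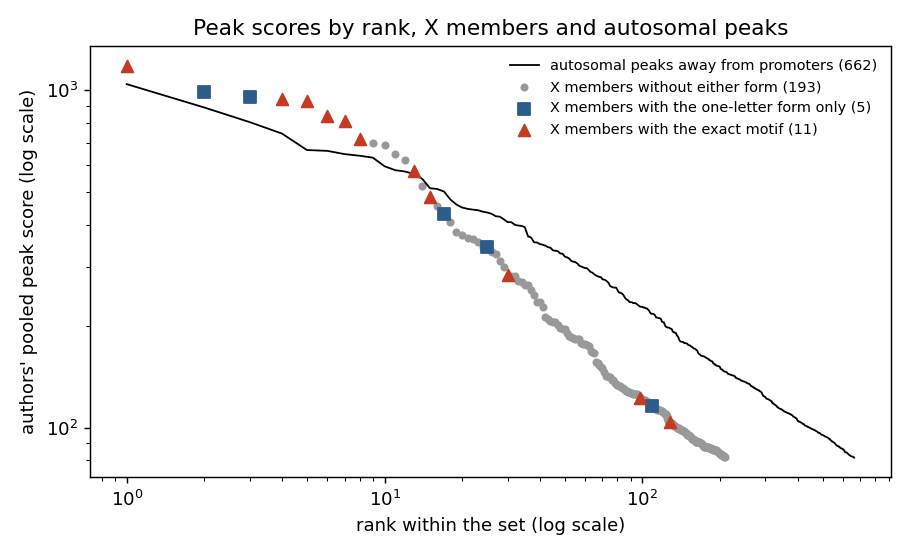
The authors' pooled peak score (log scale) against rank within the set (log scale), for the 209 members (points) and the 662 autosomal peaks away from promoters (line). Triangles mark the 11 members with GCGCAGGG within 50 bp of the summit, and squares the 5 with the form GCGAAGGG alone; the 8 highest-scoring members all carry a mark and lie above the autosomal line.

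The highest-scoring member lies at chrX:11093977-11094412 in the intergenic stretch between W04G3.11 and W02H3.3. It scored 1184.9 (pooled), 682.6 (replicate 1) and 498.9 (replicate 2), with ranks of 1, 1 and 3. The next, 6030 bp upstream of K02D3.1, scored 991.8 (pooled), 603.9 (replicate 1) and 392.4 (replicate 2). The member 2523 bp downstream of the ZK899.6 start, between it and gap-2, which encodes a Ras GTPase-activating protein, scored 959.0, 521.8 and 439.2 in the same order. All 3 are intergenic, and each ranked 18 or better in both replicates.

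The fourth member lies between F20B6.9 and hpk-1, which encodes a homeodomain-interacting protein kinase, and scored 944.4 (pooled), 518.8 (replicate 1) and 419.1 (replicate 2). The fifth lies in an intron of mom-1, the Porcupine homolog that acts in Wnt secretion, and scored 928.8, 484.4 and 448.6 in that order. It holds 2 copies of GCGCAGGG within 50 bp of its summit. Its neighbour 206 bp away, with a pooled score of 236.3, falls in the same region of both replicate lists and is not a separate observation there.

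The sixth member lies 4876 bp upstream of xol-1, the switch gene of sex determination, which is kept low in hermaphrodites so that the dosage compensation complex can assemble. It scored 842.5 (pooled), 466.5 (replicate 1) and 363.1 (replicate 2), with ranks of 19, 20 and 21. It also holds 2 copies of GCGCAGGG, on opposite strands and centred 32.5 and 1.5 bp from the summit. Its summit is 248 bp from a tRNA gene, so it is the member nearest to the 200 bp limit for small RNA genes.

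The seventh and eighth members are in an intron of Y41G9A.17 (811.8 in the pooled list, 413.7 in replicate 1, 391.6 in replicate 2) and between gtr-1 and F25E2.2 (718.9, 368.6 and 351.0). Member 13 is in a coding exon of pks-1, a polyketide synthase gene, 15198 bp from the nearest protein-coding start, that of C41A3.2. It scored 578.6 (pooled), 343.7 (replicate 1) and 240.8 (replicate 2). Member 15 lies between the collagen gene col-185 and cdk-4, a cyclin-dependent kinase gene, and scored 483.4, 271.0 and 202.4. Every one of these motif-bearing members ranked 120 or better in both replicates.

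The other 3 members with GCGCAGGG scored lower. One lies between lgc-40 and T24D8.6, 109 bp from lgc-40 and 1060 bp downstream of the T24D8.6 start. It scored 284.3 (pooled), 181.7 (replicate 1) and 101.5 (replicate 2). Another lies 6299 bp downstream of the dpy-23 start and scored 122.2, 75.1 and 44.2. The last, in Y41G9A.17 with a pooled score of 103.98, has its summit 209 bp from that of member 7 and shares its region in both replicates. The 11 members therefore stand at 10 separate places.

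Of the top 20 members, the other 9 have neither motif form within 50 bp of the summit. Their pooled scores were between 373.6 and 700.1. They include the peaks beside F19H6.5 (700.1 pooled, 362.8 in replicate 1, 342.8 in replicate 2), F55G7.5 (690.7, 374.4, 313.7), F22H10.2 (647.3, 334.9, 307.4) and T27A8.7 (622.2, 295.1, 323.1). The whole peaks beside F19H6.5 and F22H10.2 each hold 1 copy of GCGCAGGG farther from the summit. The member 2908 bp upstream of sma-9, a Schnurri-type zinc-finger gene of the BMP-like body size pathway, scored 520.9, 262.3 and 255.1. The remaining ones are near C30E1.4 (453.0), in an intron of F09A5.3 (406.0), between R03E9.2 and mdl-1 (380.6) and near F09E10.1 (373.6). Each of the 20 had its summit in a region of both replicate lists.

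GCGCAGGG marked members more often than the sequence beside them. It was within 50 bp of 11 of 209 summits, 5.26% (2.96 to 9.18), and in 0 of 209 windows of the same width centred 300 bp to the left and 0 of 209 to the right. The exact McNemar test gave p = 0.000977 and an adjusted p of 0.00228 over 7 motifs. The motifs were chosen with earlier results of these data known, and the adjustment does not cover that choice. P-values for them, here and below, are therefore descriptive. The share was 4.95% with overlapping peaks joined (exact McNemar test, adjusted p = 0.00622). With the peaks of replicate 2 alone, the share was 4.35% and the adjusted p of the exact test was 0.0501, above the threshold of 0.05. With the narrower window of 25 bp either side of the summit the share was 2.39% and the adjusted p of the exact test was 0.219. Each p is the larger one of both flanks.

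Against other peaks the motif also stood apart. None of the 662 autosomal peaks chosen by the same rule held it, which allows a share of up to 0.453% (two-sided Fisher's exact test, adjusted p = 6.50e-07 over 21 tests). Of the 3769 X background regions 3 held it, 0.0796% (0.0271 to 0.234; Fisher's exact test, adjusted p = 4.34e-11). Among X promoter peaks 2 of 197 held it, 1.02% (0.279 to 3.63). Against those the members' share did not pass the threshold (Fisher's exact test, p = 0.0211, adjusted p = 0.0555). It did, by the same exact test, with promoter windows of 500 bp upstream and 100 bp downstream (adjusted p = 0.00728) and of 2000 and 500 bp (adjusted p = 0.0247). In the other 8 of 10 alternatives it did not. The X promoter peaks with the motif are 722 bp upstream of nspc-17, with a score of 952.2, and 619 bp upstream of the insulin-like gene ins-39, with a score of 436.4. Both lie outside the 500 bp window, so with it they counted as members and 0% of X promoter peaks held the motif. The lower p with that window cannot be told apart from this move.

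**Figure D2:**
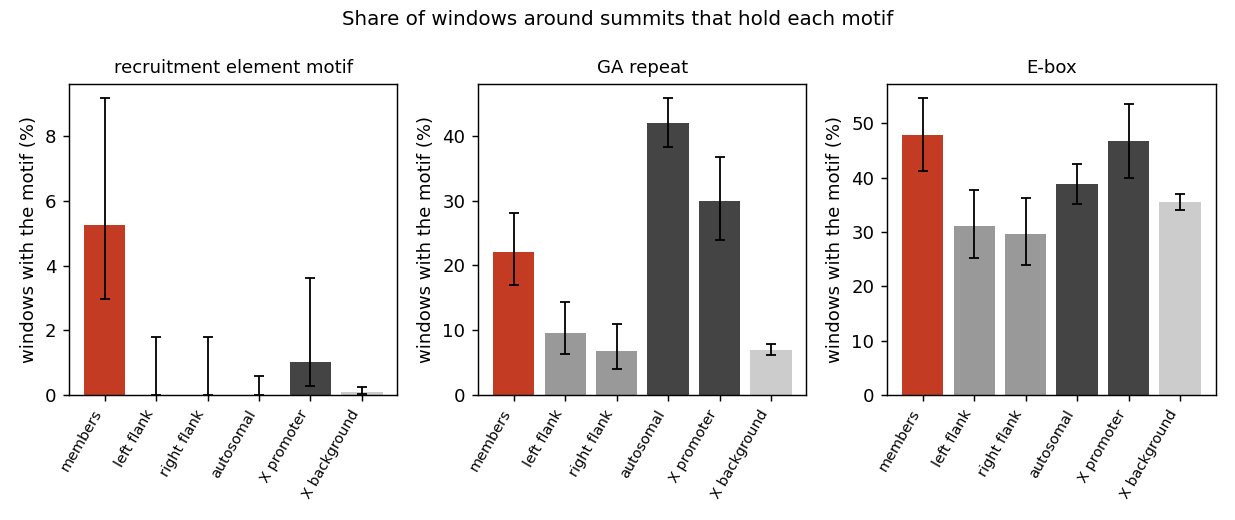
Share of the windows within 50 bp of a centre (%) that hold GCGCAGGG (left panel), GAGAGA (middle) or CANNTG (right), at member summits, in both flanks of the members, and at autosomal peaks away from promoters, X promoter peaks and X background regions; bars start at 0 and error bars are 95% Wilson intervals. The left panel has its highest bar at the members (5.26%), the middle one at the autosomal peaks (41.99%).

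The members with the motif were those with high scores. Their median pooled score was 718.9, against 115.4 for the 198 members without it, and their median rank was 27 in replicate 1 and 21 in replicate 2, against 1508.5 and 1358.5. In 4 near-equal groups by score, from high to low, 9, 1, 1 and 0 members held it. Of the 13 copies, 7 were on the plus strand and 6 on the minus strand, centred 1.5 to 46.5 bp from the summit with a median of 24.5 bp. A further look at the whole peak found a copy in 16 members.

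Single-letter forms of the motif were counted after the sequences had been seen, so they are given without a test. Of the 24 forms, GCGAAGGG (C4A) was the most frequent at members: it lay within 50 bp of 10 summits (4.78%), 8 of them in the top 20, and of 0 of 662 autosomal summits. The C4A form and the exact motif occurred together at 5 members. Either form was present at 16 members (7.66%), at 8 of the top 10 and 11 of the top 20. Either form was present in 0 windows of both flanks, at 2 X promoter peaks (1.02%) and at 7 X background regions (0.186%). Members with either form had a median score of 648.8 (103.98 to 1184.9), those with neither 114.6 (81.7 to 700.1). The 24 forms as a class were counted by the best match near each summit. That count leaves out summits with an exact copy, so the 5 members with both forms are not in it. A best match with 1 mismatch was at 13 members (6.22%), 38 autosomal peaks (5.74%) and 12 X promoter peaks (6.09%). At X background regions it was at 64 (1.70%). Within 1 mismatch, exact copies included, the shares were 11.5% of members, 5.74% of autosomal peaks, 7.11% of X promoter peaks and 1.78% of X background regions.

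Most copies of GCGCAGGG on X lay outside the optimal peaks. Away from promoters the X sequence holds 66 copies, 3.72 per megabase of X, and the autosomes hold 157, 1.90 per megabase. Of the 66 X copies, 13 were within 50 bp of an optimal summit (19.7%, 11.9 to 30.8), 3 were within 50 bp of the summit of a weaker region of the pooled list, and 50 were near neither. Over the whole optimal peaks, 19 of the 66 X copies lay inside one, 6 of them more than 50 bp from the summit. Of the 157 autosomal copies 0 lay inside an optimal peak, and 4 were within 50 bp of the summit of a weaker region. The letters around the motif differed between these sets, as seen after the copies had been listed. TC before the motif was present at 11 of the 19 X copies inside optimal peaks, at 6 of the 47 X copies outside them and at 6 of 157 autosomal copies. TC before and A after together were present at 10 of 19, 2 of 47 and 2 of 157.

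Of the other motifs, GAGAGA and CANNTG were more frequent at members than in their flanks. GAGAGA, a GA repeat, was at 46 members (22.01%, 16.9 to 28.1), above the flanks with 9.57% and 6.70% (exact McNemar test, adjusted p = 0.00228) and the X background with 6.95% (Fisher's exact test, adjusted p = 1.93e-10). It was lower than at the autosomal peaks, where 278 of 662 held it (41.99%, Fisher's exact test, adjusted p = 6.50e-07). X promoter peaks held it at 29.9%, which did not differ from members at the threshold (Fisher's exact test, adjusted p = 0.129). CANNTG, the E-box of basic helix-loop-helix proteins, was at 47.8% of members and at 31.1% and 29.7% of the flanks (exact McNemar test, adjusted p = 0.00228). By Fisher's exact test against members, CANNTG was at 38.8% of autosomal peaks (adjusted p = 0.0556) and 35.5% of X background regions (adjusted p = 0.00133). X promoter peaks held it at 46.7%, close to the members (Fisher's exact test, adjusted p = 0.885). ACATGT, which resembles sites bound by mammalian Iroquois proteins in vitro, was at 6 members (2.87%), in 0.957% and 6.70% of the flanks and at 4.38% of the autosomal peaks, and no comparison of it passed the threshold. TATAAA was at 9.09% of members and 4.23% of autosomal peaks (Fisher's exact test, adjusted p = 0.0380), but at 9.57% and 10.0% of the flanks. TTACA was at 13.4% of members, less than at the X background regions with 23.6% (Fisher's exact test, adjusted p = 0.00133), and CGCGCG at 1.91%, where no comparison passed.

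Across all 2080 6-mers, 4 were more frequent at members than at autosomal peaks away from promoters (0.192% of those tested) and 10 less frequent (0.481%), by Fisher's exact test at an adjusted p under 0.05. By that exact test the 4 were CCTTCG at 9.09% against 1.51% (adjusted p = 0.00112), AACTGC at 8.61% against 2.27% (adjusted p = 0.0260), CCCTTC at 13.4% against 5.14% (adjusted p = 0.0293) and GCGATA at 6.22% against 1.21% (adjusted p = 0.0343). CCTTCG and CCCTTC lie on the opposite strand of GCGAAGGG, and GCGATA is the opposite strand of TATCGC, whose last letters overlap the start of the motif in several of the sequences above. CCTTCG was at 19 members and CCCTTC at 28, while GCGAAGGG was at 10, so both 6-mers also occurred at members without that form. The lower ones were led by AGAGAG (14.8% against 33.99%) and GAGAGA. With the peaks of replicate 2 alone 6 were called, 2 of them higher.

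Against both flanks 1 6-mer was higher at members (0.0481% of those tested) and 11 were lower (0.529%), by exact McNemar tests. The higher one was CCTGCG, the opposite strand of CGCAGG inside the motif, at 10.0% of summits and 1.44% and 0% of the flanks (exact McNemar test, adjusted p = 0.0480). CCTGCG was at 21 members, more than the 11 with GCGCAGGG. The 11 lower ones were rich in A and T, led by AAAATT at 11.005% of summits and 33.5% and 35.9% of the flanks (exact McNemar test, adjusted p = 3.89e-05). Base composition moved the same way: mean GC was 44.5% within 50 bp of the members' summits and 36.1% and 35.1% in the flanks. At the summits of X background regions mean GC was 35.2%, and at those of autosomal peaks away from promoters 44.8%. The part of base composition in the 6-mer counts, and in the shares of GCGCAGGG at members, flanks and background regions, was not tested.

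Of the 209 summits 127 were intergenic (60.8%), 78 lay in an intron (37.3%), 2 in a coding exon (those of pks-1 and F46F2.5), 2 in a 5′ UTR (fkh-9 and cdf-1) and 0 in a 3′ UTR. The intron share was 43.7% for the autosomal peaks, an odds ratio of 0.768 (two-sided Fisher's exact test, p = 0.109). Without dropping peaks beside small RNA genes the shares were 36.7% and 46.8%, which did differ (Fisher's exact test, p = 0.00504). The median distance to the nearest protein-coding start was 2620 bp. By distance, 16 members lay within 1000 bp, 54 at 1000 to 2000 bp, 101 at 2000 to 5000 bp and 38 farther away. The summit was upstream of its nearest start in 89 and downstream of it in 120.

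The members closest to a promoter window were 204 bp downstream of the tsp-21 start (score 90.3) and 1005 bp upstream of fbxb-58 (429.6), the latter with the C4A form. The X peaks just inside a window were 985 bp upstream of mgrn-1 (132.7) and 971 bp upstream of F09C8.2 (186.2). The highest score among the 55 peaks dropped beside small RNA genes was 389.5. The lowest-scoring member had 81.7 and the highest-scoring X background region 81.4.

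The replicates held most members. The 2445 highest-scoring regions of both replicates overlapped 146 members (69.9%, 63.3 to 75.7), against 71.6% of autosomal peaks away from promoters and 70.6% of X promoter peaks. Replicate 1 alone overlapped 33, replicate 2 alone 26 and neither 4. In the same 4 groups by score, both replicates held 53 of 53, 51 of 52, 34 of 52 and 8 of 52 members, from high to low. Summits of 207 members lay in a region of both full lists, and across these the replicate scores had a Spearman rho of 0.724, against 0.611 over 655 autosomal peaks. These points were chosen on the pooled score, and 4 members repeat a replicate 1 region of another, so rho is a description only.

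**Figure D3:**
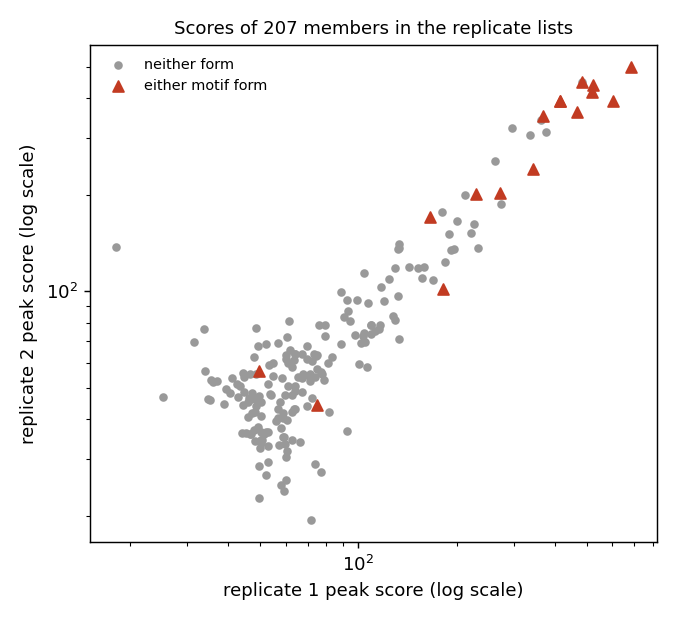
Replicate 2 peak score against replicate 1 peak score (both log scales) for the 207 members whose summit lies in a region of both lists. The 16 members with either motif form are triangles, and most of them fill the upper right end, up to 682.6 in replicate 1 and 498.9 in replicate 2.

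Some genes held several members. Seen after the values were known, 18 groups of members within 2000 bp of each other held 50 members, and 159 members stood alone. The group with the most members was 7 over 8130 bp at mdl-1, which encodes a MAD-like basic helix-loop-helix protein. At 6459, 5560, 4590, 3144 and 1214 bp upstream of the mdl-1 start the pooled scores were 81.7, 183.2, 380.6, 153.3 and 101.9. Those at 6459, 5560 and 4590 bp lie nearer to the start of the divergent gene R03E9.2, at 2591, 3490 and 4460 bp from it. At 710 and 1671 bp downstream they were 213.6 and 363.8, and a promoter peak 61 bp upstream scored 179.2. The members at 5560 and 4590 bp upstream and at 710 and 1671 bp downstream scored above the promoter peak. Those at 4590 bp upstream and 1671 bp downstream scored 220.9 and 201.1 in replicate 1, and 152.1 and 166.3 in replicate 2.

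Introns of lin-14 held 7 members, more than any other gene. lin-14 encodes a nuclear protein that specifies L1 fates and times the remodelling of DD motor neurons. The members lay 1980, 4952, 5720, 6554, 6869, 7842 and 8050 bp downstream of its start and scored 151.2, 97.9, 94.9, 86.2, 87.8, 133.6 and 105.01. A peak in the lin-14 promoter, 250 bp upstream, scored 132.5. In replicate 1 these members scored between 47.3 and 91.7. Those at 6554 and 6869 bp overlap and fall in the same replicate 1 region, so they are not separate observations there. In replicate 2 the lin-14 members scored between 33.05 and 62.6, with no region holding the summit at 7842 bp. Their pooled ranks ran from 983 to 2258, and none holds GCGCAGGG.

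**Figure D4:**
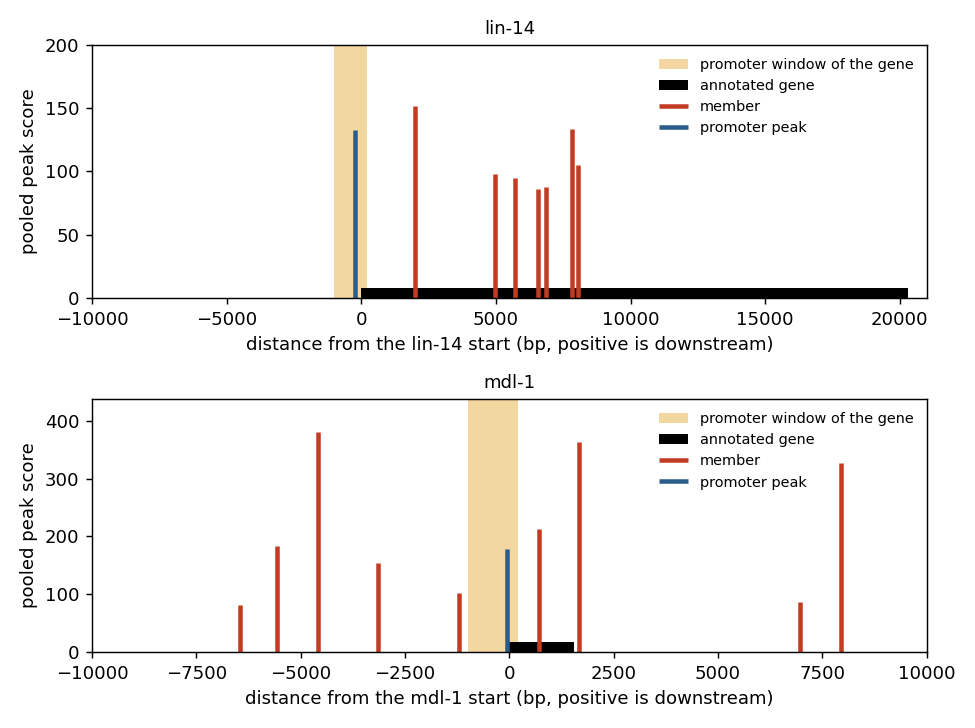
Pooled peak score against distance from the gene start (bp) at lin-14 (top) and mdl-1 (bottom), with members in red, promoter peaks in blue, the promoter window shaded and the annotated gene as a black bar. The 7 members of lin-14 lie inside the gene with scores from 86.2 to 151.2, and the members at mdl-1 lie upstream, inside and downstream of the gene, up to a score of 380.6. The member with that score lies nearer to the start of R03E9.2.

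Groups of 3 members were found at nhr-3, mxl-3, hlh-29, unk-1 and bcat-1. At nhr-3, a nuclear hormone receptor gene, the summits 1906, 3071 and 3953 bp downstream of the start scored 270.4, 86.02 and 114.7. mxl-3, a Max-like basic helix-loop-helix gene that acts in lipid metabolism, had members 2879, 4124 and 5764 bp upstream with 146.4, 83.3 and 87.6. Along X the members were spread, with 5 to 21 per full megabase and a median of 12. The left, middle and right stretches of equal length held 59, 73 and 77.

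Gene lists were read by the host gene or the nearest start. Nuclear receptor genes were nearest to 12 members (5.74%), against 111 of 3769 X background regions (2.95%) and 27 of 2731 X protein-coding genes (0.989%). These 12 stood at 9 genes, led by nhr-3 (270.4) and the intron of daf-12 (227.3), the receptor for dafachronic acid that links hormone signalling to developmental timing. Genes of the heterochronic pathway, which sets the order of larval stages, were nearest to 9 members (4.31%) and 20 background regions (0.531%). All 3 protein-coding X genes of that list were involved: lin-14 with 7, daf-12 with 1, and hbl-1, the hunchback homolog, with 1 at 1097 bp upstream (score 90.7). MicroRNA genes of the list, such as mir-84 on X, were not counted. Members close together at 1 gene are not separate observations, so these shares carry no test.

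The GABA motor neuron list, which names lin-14 and hbl-1 too, had 8 members (3.83%) at those 2 genes and none at its other 4 X genes, against 0.531% of the background regions. Dosage compensation and sex determination genes had 2 members (0.957%, background 0.212%), those at xol-1 and in an intron of fox-1 (88.8), an RNA-binding X signal element that lowers xol-1. Collagen genes had 2 members (0.957%, background 0.398%) and axon guidance genes 1, at igcm-3 (0.478%, background 1.59%). One member lay nearest to a chemoreceptor gene, srg-64 (0.478%, background 0.504%). No member was inside, or nearest to the start of, a gene named on the lists of homeobox genes (25 X genes) or neuropeptides (36). The same held for ion channels and ligand-gated receptors (64) and Wnt genes (2), and a count of 0 allows up to 1.44% of members. Background regions nearest to these lists made up 0.849%, 1.33%, 2.41% and 0.186%. A listed gene beside a member is not counted when another start is nearer. One such gene is lgc-40 of the ion channel list, 109 bp from the summit of the motif-bearing member near T24D8.6. The lists go by symbol and are not complete, and 3 genes with members, noticed on reading the names, belong to these families without being listed. vab-15, an Msx-class homeobox gene, held a member in an intron 1547 bp downstream of its start, with scores of 128.4 (pooled), 70.6 (replicate 1) and 54.4 (replicate 2). The start of pbo-6, a proton-gated channel subunit gene, lay 1094 bp from a member with scores of 175.7, 103.7 and 72.6 in that order. mom-1, described above, acts in the Wnt pathway.

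Noncoding genes outside the rule were near some members. Within 200 bp of the summit 37 members (17.7%) had an annotated noncoding RNA gene of another kind, as did 16.8% of autosomal peaks and 8.97% of X background regions. One microRNA gene, mir-8196a, 2 long noncoding RNA genes, linc-154 and linc-54, and 3 piRNA genes were among these neighbours. No pseudogene was, against 13 of 662 autosomal peaks (1.96%). In the member windows a mean of 13.3% of the bases were soft-masked as repeats, against 12.1% at X promoter peaks, 20.4% at the autosomal peaks and 30.01% in the X background.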

How the data were processed

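Peaks came from chromatin immunoprecipitation of IRX-1-eGFP in 2 replicates. Per the deposited notes, each build (ce11, ce10) has a permissive list for each replicate and for their pooled alignments, made with a control, and an optimal list kept by its irreproducible discovery rate. Aligner, peak caller and cutoff: not given in the sources used here. The authors gave every region a peak score of unstated formula. They also deposited a −log10 q value, tied at the top and so not used for ranking. The optimal list equals the 2445 highest-scoring pooled regions. The ce10 lists were only counted (472 X peaks of 2481), and coordinates are ce11, 1-based.

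Genes came from Ensembl release 115 and sequence from RefSeq WBcel235. Motifs were searched on both strands within 50 bp of each summit. Two-sided tests of shares were Fisher's exact test or, against flanks, exact McNemar tests (the larger p of both flanks), with Benjamini-Hochberg adjustment over 7 motifs against flanks, 21 motif comparisons, or 2080 6-mers, at 0.05 (Python 3.11.15, scipy 1.17.1, pandas 2.3.3, matplotlib 3.10.9). The 6-mer tests were tested on simulated data. Shares have 95% Wilson intervals, and a count of 0 allows 3 counts of the total. Depth is unknown. Alternatives covered promoter windows, small RNA genes, the 1222 highest scores, joined peaks, window and flank sizes, motif forms, overlap definitions and single replicates. The named regions were the 20 highest-scoring members held by both replicates, the motif-bearing members, members at listed genes and those at the limits. Members, motifs and gene lists were chosen with earlier results of these data known.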

Additional observations from a re-analysis of the deposited data

How the results depend on the processing

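Of 75 alternative values, 59 matched the reported call and direction or stayed within 1.5 times a count or within the interval of a share, and none reversed. The share of X peaks away from promoters stayed between 37.5% and 57.3% and above the autosomal share in all 7 alternatives, and the motif against autosomal peaks and against X background regions passed in all 10 each. The intron share differed from the autosomes only without dropping peaks beside small RNA genes (36.7%). Against flanks, GCGCAGGG missed the threshold with a window of 25 bp (2.39%). Against X promoter peaks it passed with both other promoter windows (5.14% and 5.78%) and in none of the other 8 alternatives. Among these were replicate 2 alone (Fisher's exact test, adjusted p = 0.155) and replicate 1 alone (Fisher's exact test, adjusted p = 0.207). The narrower promoter window counted both X promoter peaks with the motif as members.

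Counts of called 6-mers moved most. Against autosomal peaks, 14 were called, 8 with the wider promoter window, 5 with a window of 25 bp and 29 with one of 100 bp. Against flanks, 12 were called, 25 and 3 with the narrower and wider promoter windows, 2 among the 1222 highest-scoring peaks, 3 and 40 with windows of 25 and 100 bp, and 47 with flanks 500 bp away. At an unadjusted p under 0.05 the counts were 171 and 124. The cause of these moves was not tested. All 84 members in the upper part of the list were in both replicates (100%).

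Leaving out each replicate in turn gave 45.7% to 48.4% of X peaks away from promoters, 34.8% to 35.9% in introns, 4.35% to 4.93% with GCGCAGGG in each comparison, and 6 to 15 and 11 to 18 called 6-mers. Without replicate 1 the motif against flanks missed the threshold (exact McNemar test, adjusted p = 0.0501). No paired analysis was possible because only 1 group was sampled.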

Other observations

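The letters GTGGATA recur in the sequences of several high-scoring members, which was noticed on reading them and was not tested. They lay within 50 bp of the summit at 5 of 209 members (2.39%), and all 5 are among the 20 highest-scoring and carry GCGCAGGG or its C4A form. They were at 6 of 662 autosomal peaks away from promoters (0.906%), 3 of 197 X promoter peaks (1.52%) and 20 of 3769 X background regions (0.531%). The left flanks held them in 5 windows and the right flanks in 1, so across all members the share at summits was no higher than in the left flank.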
